A study of Homo sapiens with 21 samples.

Results

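The D-type cyclins are the 3 genes CCND1, CCND2 and CCND3, chosen by their gene symbols out of 16383 genes in an RNA sequencing table of human lung fibroblasts, and all 3 passed the filter on low values. Their transcript levels are described across 7 groups of cells, with attention to what CCND2 and CCND3 did when CCND1 was knocked down. A D-type cyclin binds and activates the cyclin-dependent kinases CDK4 and CDK6, and the active complex phosphorylates the retinoblastoma protein RB1, which frees E2F transcription factors to switch on the genes of DNA replication. The INK4 inhibitors keep the kinases from the cyclins, and the CIP/KIP inhibitors bind the assembled complexes. The cyclin proteins turn over fast through ubiquitin ligases, their genes respond to mitogen signals, and senescent fibroblasts are known to hold abundant cyclin D1 while they no longer divide.

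The 21 libraries, 3 in each group, were made from poly(A) RNA of IMR90, a line of fibroblasts from human lung. The proliferating group was labelled wild type with no irradiation and no treatment. The other 6 groups were made senescent by irradiation, transfected with small interfering RNA (siRNA) at 5 nM on day 4 and day 7 after irradiation, and harvested on day 10. Among these, 2 control groups were given a non-targeting siRNA, NT3 or NT4. The remaining 4 were given siRNA to CCND1, to CDK4, to CDK6, or to both kinases at once, which is called the dual knockdown here. NT3 and NT4 are the names in the sample titles, and the series' design text numbers the controls 1 and 2. Irradiation and transfection differ together between the proliferating group and all others, so their effects cannot be told apart. The labels name 1 siRNA for each target and give no sequence, so an effect outside the target cannot be told apart from an effect of the target. They do not say whether libraries of a group came from separate cultures, so p-values measure the spread between these libraries, which may be technical.

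Libraries held from 12892442 to 21822152 reads in the listed genes. The 9 fibroblast markers were abundant in every library, with COL1A1 at a normalised read count of 186736 to 419002. Among the markers of other cell types, KRT5, KRT14, CDH5, CD3E and MYH11 never exceeded 3 reads. EPCAM at 11 to 46 reads, DES at 37 to 74, CD14 at 3 to 39, VWF at 3 to 31 and PECAM1 at 1 to 17 were found in every library. The 4 endothelial markers summed to 7.09 to 9.61 normalised counts in proliferating and 16.02 to 48.2 in irradiated libraries. The 4 immune markers summed to 3.54 to 4.37 and to 7.47 to 43.8. The part of either list in the results was not tested. The targeted kinases followed the labels: CDK4 was at 105.6 to 109.9 in the CDK4 knockdown and 115 to 123 in the dual knockdown against 1158 to 1356 in the controls, and CDK6 was at 727 to 834 in the CDK6 knockdown and 930 to 998 in the dual knockdown against 4147 to 5689. Tests below are limma fits over all 21 libraries on log2 of the normalised count plus 1, adjusted over 11579 tested genes, with a threshold of 0.05, and "controls" means the average of NT3 and NT4.

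In GENCODE v44 on GRCh38, CCND1 lies on chromosome 11 at 69641156 to 69654474 on the plus strand, CCND2 on chromosome 12 at 4269771 to 4305353 on the plus strand, and CCND3 on chromosome 6 at 41934934 to 42050357 on the minus strand. Each canonical transcript has 5 exons, with lengths of 4238 nucleotides for CCND1, 6493 for CCND2 and 2026 for CCND3. The gene LTO1 shares 497 bases with the CCND1 exons on the opposite strand, and CCND2 shares 162 bases with the antisense gene CCND2-AS1 and 999 bases with the gene ENSG00000285901 on its own strand. Whether the counting used strand, and how it treated reads shared by overlapping genes, is not given in the sources used here. Reads of these overlapping genes may be included in the CCND1 and CCND2 counts, or shared reads may have been left out of them.

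All 3 D-type cyclin transcripts were higher in the irradiated control cells than in proliferating cells, and CCND2 changed far more than CCND1 and CCND3. CCND1, the cyclin that dominates in fibroblasts, stood at 15928, 16520 and 16648 normalised counts in the proliferating libraries, at 33969, 36692 and 25615 with NT3, and at 44545, 48813 and 45546 with NT4. CCND2, the family member whose gene is best known from ovary, testis and lymphocytes, stood at 117, 119 and 112.5 in the proliferating libraries, at 3608, 3314 and 3615 with NT3, and at 4117, 4240.2 and 3889 with NT4. CCND3, the member most prominent in blood-forming cells, stood at 1119.7, 1167 and 1187 in the proliferating libraries, at 1917, 1814 and 2235 with NT3, and at 2257, 2326 and 2305 with NT4.

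For each of the 3 genes the lowest control library was above the highest proliferating library, so the groups did not overlap. CCND2 was nearly silent in proliferating cells, where its level rested on at most 134 reads per library. The difference between senescent controls and proliferating cells was 5.01 on the log2 scale for CCND2 (SE 0.05, limma adjusted p = 2.85e-25), a 32.3-fold higher level. It was 1.23 for CCND1 (SE 0.08, limma adjusted p = 1.57e-11), a 2.34-fold higher level, and 0.88 for CCND3 (SE 0.05, limma adjusted p = 3.19e-12), a 1.84-fold higher level.

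In that comparison 68.6% of all tested genes passed the threshold, 32.6% upward and 36.1% downward, and 54.1% had groups that did not overlap, so a call alone sets no gene apart. The sizes differed more: 0.241% of tested genes had a larger absolute change than CCND2, against 13.7% for CCND1 and 22.7% for CCND3. In these bulk libraries fewer cells with a transcript and less of it per cell cannot be told apart. Over all genes, the log2 difference before median centring of the libraries minus that after it had a median of -0.11 in this comparison. Centring thus raised the differences, and the 3 were then 1.34, 5.13 and 0.99 for CCND1, CCND2 and CCND3.

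**Figure D1:**
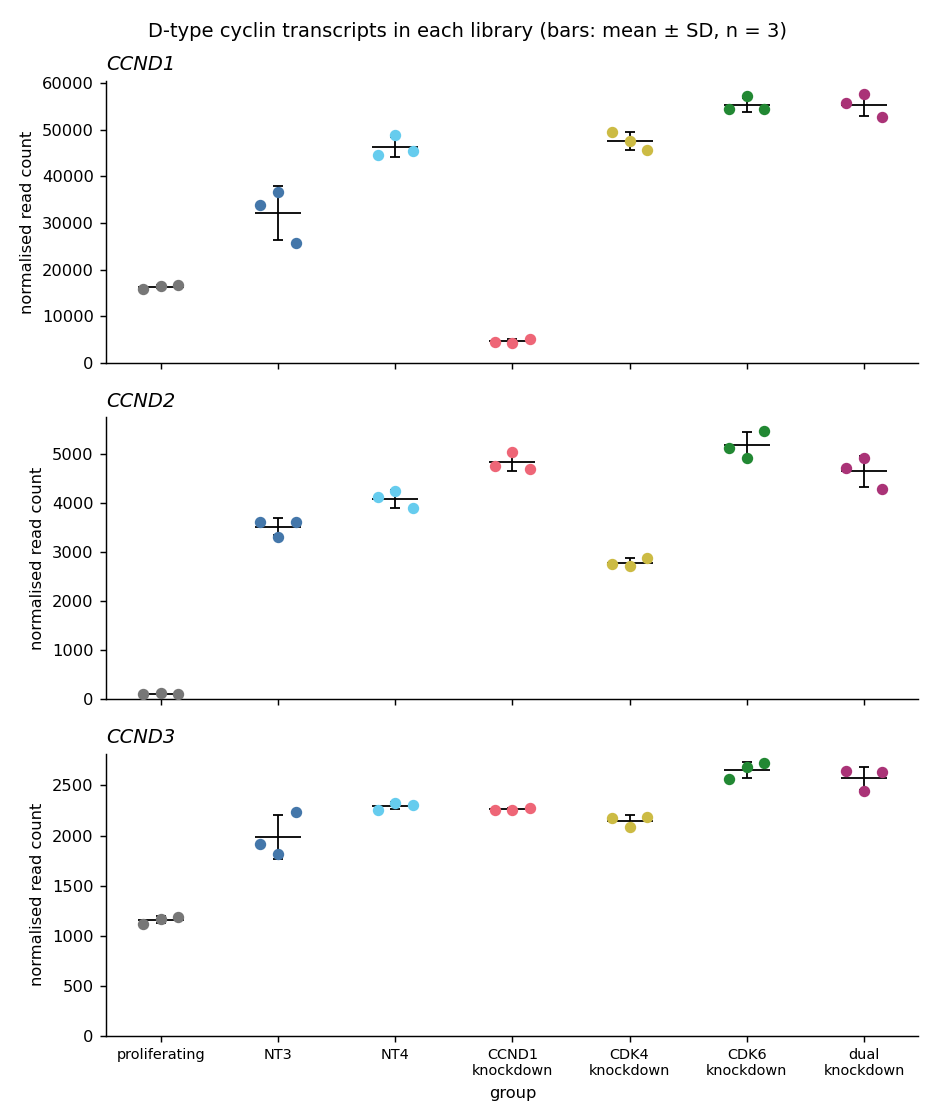
Normalised read count (vertical axis, linear, from 0) of CCND1, CCND2 and CCND3 in every library of the 7 groups (horizontal axis); points are libraries, bars the mean ± SD of 3. CCND2 is at most 119 in proliferating cells and 2712 or more in every irradiated library, CCND1 falls to at most 5149 in its knockdown, and the proliferating libraries are the lowest for CCND2 and CCND3.

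Over the 7 groups, the mean CCND1 level ranged from 4633 ± 480.4 (SD, n = 3) in the CCND1 knockdown through 16365 ± 384 in proliferating cells, 32092 ± 5772 with NT3, 46302 ± 2232 with NT4, 47572 ± 1880.3 in the CDK4 knockdown and 55309.7 ± 2452 in the dual knockdown to 55355 ± 1552 in the CDK6 knockdown. Neighbours in that order differed by limma up to NT4. The proliferating and NT3 groups, for example, differed by 0.96 on the log2 scale (SE 0.09, adjusted p = 1.13e-08), where 67% of tested genes passed. The pairs NT4 and CDK4 knockdown (limma adjusted p = 0.854), CDK4 and dual knockdown (adjusted p = 0.0895) and dual and CDK6 knockdown (adjusted p = 0.994) did not pass, where 11.6%, 30.6% and 13% of tested genes did. The CDK4 and dual knockdown libraries did not overlap for CCND1, as for 46.5% of tested genes.

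The mean CCND2 level ranged from 116 ± 3.42 (SD, n = 3) in proliferating cells through 2783 ± 83.9 in the CDK4 knockdown, 3512 ± 172 with NT3, 4082 ± 178 with NT4, 4638 ± 322 in the dual knockdown and 4828 ± 186 in the CCND1 knockdown to 5167 ± 283 in the CDK6 knockdown. Here the first 4 groups each differed from the next by limma, the closest pair being NT4 and the dual knockdown (adjusted p = 0.0216, 36.7% of tested genes called). The dual and CCND1 knockdowns (adjusted p = 0.544) and the CCND1 and CDK6 knockdowns (adjusted p = 0.349) did not pass, and their libraries overlapped.

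CCND3 varied least among the irradiated groups. Its mean ranged from 1158 ± 34.6 (SD, n = 3) in proliferating cells through 1989 ± 219.6 with NT3, 2149 ± 58.9 in the CDK4 knockdown, 2261 ± 9.40 in the CCND1 knockdown, 2296 ± 35.4 with NT4 and 2572 ± 114 in the dual knockdown to 2655 ± 82.3 in the CDK6 knockdown. Only the steps from proliferating cells to NT3 and from NT4 to the dual knockdown (limma adjusted p = 0.0442) passed the test. The CDK4 and CCND1 knockdowns, for example, did not (adjusted p = 0.429), in a comparison where 23.3% of tested genes did.

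The 2 non-targeting siRNAs themselves differed in all 3 genes, which bears on every comparison with their average. NT4 was higher than NT3 by 0.54 on the log2 scale for CCND1 (SE 0.09, limma adjusted p = 0.0002), by 0.22 for CCND2 (SE 0.06, adjusted p = 0.0105) and by 0.21 for CCND3 (SE 0.06, adjusted p = 0.0137), with no overlap of libraries. In that comparison 27.8% of tested genes passed the threshold and 34.9% had groups that did not overlap. The third NT3 library had the lowest CCND1 of the 6 control libraries and, within NT3, the highest CCND3. It also had the fewest reads of the series, at 12892442, and the second NT3 library had the most, at 21822152. Fitted on the NT3 and NT4 libraries alone, the CCND2 and CCND3 differences kept their size and did not pass (adjusted p = 0.14 and 0.201), and without the second NT3 library the CCND3 difference was 0.15 and did not pass (adjusted p = 0.0657).

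Knockdown of CCND1 removed most of its transcript and was accompanied by a small rise of CCND2, while CCND3 did not pass the test. CCND1 stood at 4552, 4198 and 5149 normalised counts in the knockdown libraries, below every other library of the series including the proliferating ones. The log2 difference from the controls was -3.05 (SE 0.08, limma adjusted p = 1.18e-16), which left 12.1% of the control level (95% interval 10.7% to 13.6%). The remaining CCND1 was below the proliferating level as well, with 1.83 (SE 0.09, limma adjusted p = 3.13e-13) between the groups on the log2 scale and 63.8% of tested genes called.

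CCND2 stood at 4749, 5040.1 and 4693 normalised counts in the CCND1 knockdown, and all 3 libraries were above the highest control library at 4240.2. Its log2 difference from the controls was 0.35 (SE 0.05, 95% interval 0.24 to 0.46, limma adjusted p = 3.12e-05), a level 1.28-fold that of the controls. In this comparison 31% of tested genes passed the threshold, 16.7% upward, and 21.2% had groups that did not overlap. A larger absolute change was seen in 22.8% of tested genes, so the CCND2 rise was of a size common in this comparison. Against NT4 alone it was 0.24 (limma adjusted p = 0.00667, 19.3% of tested genes called), and against NT3 alone 0.46 (adjusted p = 5.06e-06, 38.2% called).

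CCND3 stood at 2258, 2254 and 2272 in the CCND1 knockdown, the narrowest spread of any group, and these libraries lay inside the control range of 1814 to 2326. Its log2 difference from the controls was 0.08 (SE 0.05, 95% interval -0.03 to 0.20, limma adjusted p = 0.246). The interval allows at most a level of 115% of the controls, so a rise of the size seen for CCND2 lay outside it. The value depended on the control: it was 0.19 against NT3 alone (adjusted p = 0.019) and -0.02 against NT4 alone (adjusted p = 0.853), and without the third NT3 library it was 0.13 and passed the test (adjusted p = 0.013).

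**Figure D2:**
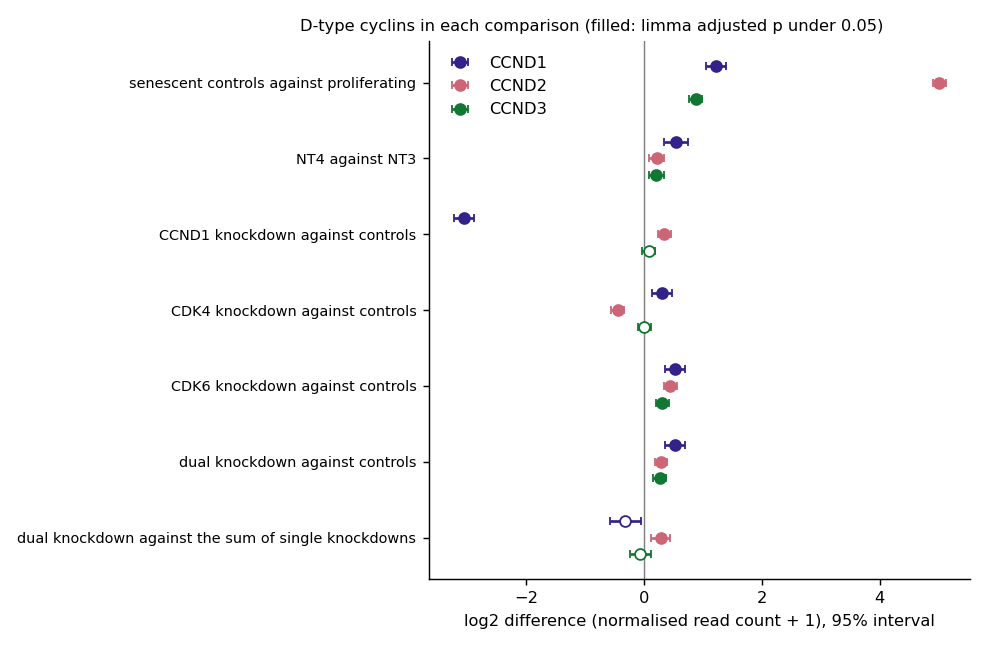
Log2 difference of normalised read count plus 1 (horizontal axis) for CCND1, CCND2 and CCND3 in each of the 7 comparisons (vertical axis), with 95% intervals from limma; filled points have an adjusted p under 0.05. CCND2 stands alone at 5.01 in senescent against proliferating cells, is the only cyclin below 0 in the CDK4 knockdown at -0.44, and is at 0.35 in the CCND1 knockdown, where CCND1 is at -3.05.

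Levels of different genes were compared only per kilobase of canonical transcript. On that scale CCND1 was the most abundant D-type cyclin in proliferating cells at 3862 ± 90.6 (SD, n = 3) and in the 6 control libraries at 9249 ± 2056, against 17.9 ± 0.526 and 585 ± 53.8 for CCND2 and 572 ± 17.1 and 1058 ± 108.3 for CCND3. CCND1 thus made up 86.8% ± 0.064 of the summed D-type cyclin level in proliferating cells and 84.5% ± 3.07 in the controls. The share of CCND2 was 0.402% ± 0.0178 in proliferating cells and 5.50% ± 0.921 in the controls, and that of CCND3 was 12.8% ± 0.0818 and 10.0% ± 2.16.

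In the CCND1 knockdown the 3 cyclins came close to each other per kilobase, at 1093 ± 113 (SD, n = 3) for CCND1, 744 ± 28.7 for CCND2 and 1116 ± 4.64 for CCND3. Their shares of the sum were 37.0% ± 2.66, 25.2% ± 1.67 and 37.8% ± 1.04. In the other 3 knockdown groups CCND1 still held 86.1% to 88.3% of the sum.

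The summed level per kilobase in the CCND1 knockdown was 2880, 2920 and 3059, below the proliferating libraries at 4329 to 4531 and the controls at 7704 to 13319. Its mean of 2953 ± 94.2 was 27.1% of the control mean. CCND1 was lower than in the controls by 8156 per kilobase, while CCND2 was higher by 159 and CCND3 by 58.7, together 217, which is 2.67% of the CCND1 difference. That share was 5.20% against NT3 alone, 2.51% without the third NT3 library and 0.994% against NT4 alone, where the CCND3 difference was -17.1 per kilobase. The summed difference of CCND2 and CCND3 was thus small beside the CCND1 loss with any of these controls. The CDK6 and dual knockdowns had sums of 139% and 138% of the control mean, with 15168 ± 347 and 15035 ± 586, and the CDK4 knockdown 117%, with 12714 ± 436. These sums depended on the control as well. Against NT4 alone they were 119.6% in the CDK6, 118.5% in the dual and 100.2% in the CDK4 knockdown. Against NT3 alone they were 166.8%, 165.3% and 139.8%.

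**Figure D3:**
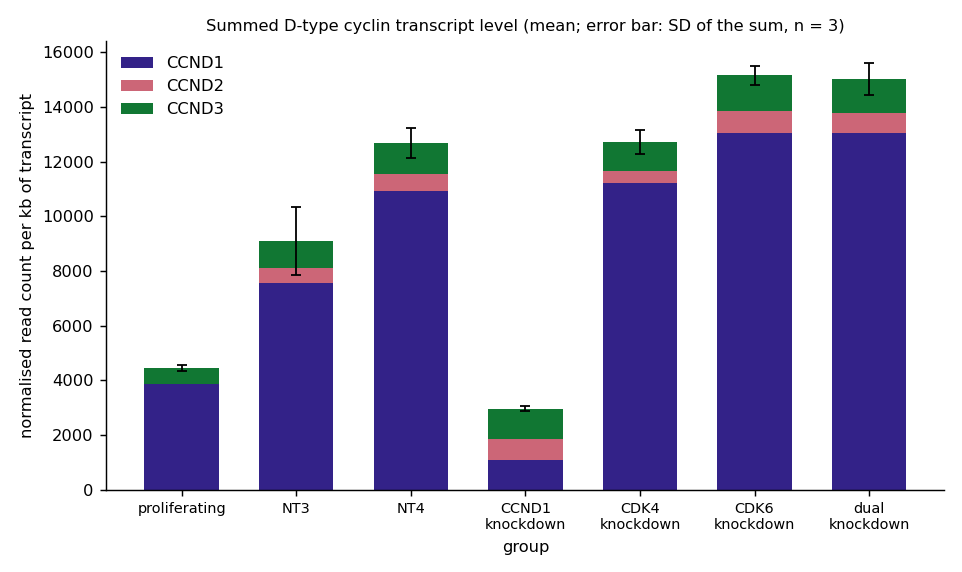
Normalised read count per kilobase of canonical transcript (vertical axis, from 0), stacked for CCND1, CCND2 and CCND3, as group means of 3 libraries (horizontal axis: group); error bars are the SD of the sum. The CCND1 knockdown has the lowest sum at 2953 and is the only group in which CCND1 does not make up most of the bar.

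The order of CCND2 and CCND3 per kilobase rests on the transcript model. With canonical lengths CCND2 was 0.554 ± 0.0317 of CCND3 in the 6 control libraries, and with the union of protein-coding exons, where CCND3 has 4405 bases and 13 coding transcripts, the ratio was 1.08 ± 0.0850 with NT3 and 1.08 ± 0.0481 with NT4. CCND1 still made up most of the sum in proliferating and control cells with the union lengths. In the CCND1 knockdown the shares were then 47.4% for CCND1, 29.7% for CCND2 and 22.8% for CCND3, with CCND3 last in place of CCND2, and the sum was 22.4% of the control mean.

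The ratio of CCND2 to CCND1 within a library is free of the scaling between libraries. On the log2 scale of normalised counts it was -7.09, -7.11 and -7.21 in proliferating cells, -3.23, -3.47 and -2.82 with NT3, and -3.44, -3.53 and -3.55 with NT4. It was 0.06, 0.26 and -0.13 in the CCND1 knockdown, far above every other group. In the CDK4 knockdown it was -4.16, -4.13 and -3.99, below every control library, whereas the CDK6 knockdown (-3.54 to -3.31) and the dual knockdown (-3.62 to -3.55) overlapped the controls, the latter at their lower edge.

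The log2 ratio of CCND2 to CCND3 was -3.32 ± 0.0737 (SD, n = 3) in proliferating cells and 0.83 ± 0.08 (n = 6) in the controls. It was 1.09 ± 0.0598 in the CCND1 knockdown, above all 6 control libraries, and 0.37 ± 0.0281 in the CDK4 knockdown, below all 6. The log2 ratio of CCND3 to CCND1 was -3.82 ± 0.01 in proliferating cells, -4.17 ± 0.328 in the controls and -1.03 ± 0.142 in the CCND1 knockdown. These ratios were not tested.

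Knockdown of CDK4 was the one treatment in which CCND2 fell. CCND2 stood at 2762, 2712 and 2876 normalised counts, all below the lowest control library at 3314. Its log2 difference from the controls was -0.44 (SE 0.05, limma adjusted p = 4.32e-06), a level of 73.5% of the controls (95% interval 68.2% to 79.3%), and it passed against NT3 alone at -0.33 (25.6% of tested genes called) and against NT4 alone at -0.55. In this comparison 16% of tested genes passed the threshold, 8.46% upward and 7.55% downward, 11.2% had groups that did not overlap, and 8.49% had a larger absolute change than CCND2.

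CCND1 stood at 49482, 47509.6 and 45723 in the CDK4 knockdown, within or just above the NT4 libraries and above all NT3 libraries. Its log2 difference from the controls was 0.31 (SE 0.08, limma adjusted p = 0.0116), but the groups overlapped. Against NT4 alone the difference was 0.04 (adjusted p = 0.854), fitted on the compared groups alone it missed the threshold (adjusted p = 0.103), and without the first CDK4 knockdown library it was 0.28 (adjusted p = 0.0701). CCND3 stood at 2179, 2081 and 2186, inside the control range, with a log2 difference of 0.01 (95% interval -0.10 to 0.12, limma adjusted p = 0.929), and the sign turned with the control (0.12 against NT3 alone, -0.10 against NT4 alone).

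Knockdown of CDK6 was followed by higher levels of all 3 D-type cyclins. CCND1 stood at 54505, 57146 and 54413, CCND2 at 5119, 4912 and 5471, and CCND3 at 2563, 2679.8 and 2722 normalised counts. Every one of these libraries was above the highest control library for its gene. The log2 differences were 0.53 for CCND1 (SE 0.08, limma adjusted p = 2.32e-05), 0.45 for CCND2 (SE 0.05, adjusted p = 6.53e-07) and 0.32 for CCND3 (SE 0.05, adjusted p = 6.97e-05). All 3 members were called against a background of 41.9% of tested genes, 21.1% upward, and of 28.6% with groups that did not overlap. Against NT4 alone the differences were smaller, at 0.26 (adjusted p = 0.0431), 0.34 (adjusted p = 0.000188) and 0.21 (adjusted p = 0.0132), with 30.6% of tested genes called.

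In the dual knockdown all 3 transcripts were also higher than in the controls. CCND1 stood at 55663, 57565 and 52700.4, CCND2 at 4707, 4920.2 and 4287, and CCND3 at 2641, 2440.5 and 2634. None of these libraries fell inside the control range of its gene, though the third CCND2 library was only just above it. The log2 differences were 0.53 for CCND1 (SE 0.08, limma adjusted p = 2.05e-05), 0.29 for CCND2 (SE 0.05, adjusted p = 0.000114) and 0.27 for CCND3 (SE 0.05, adjusted p = 0.000341), against a background of 44% of tested genes called, 22.5% upward, and 28.3% with groups that did not overlap. Against NT4 alone they were 0.26 (adjusted p = 0.0383), 0.18 (adjusted p = 0.0216) and 0.16 (adjusted p = 0.0442).

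Whether the dual knockdown equalled the 2 single knockdowns added together was tested with an interaction term, by which 6.35% of tested genes departed from the sum. CCND2 was higher than the sum by 0.29 on the log2 scale (SE 0.08, 95% interval 0.12 to 0.45, limma adjusted p = 0.0346). CCND2 in the dual knockdown was 0.73 above the CDK4 knockdown (SE 0.06, limma adjusted p = 4.69e-09). It differed from the CDK6 knockdown by -0.16 (95% interval -0.28 to -0.03), which did not pass after adjustment over all genes (limma adjusted p = 0.0931). This departure is a borderline call, and it did not pass against NT3 alone (0.18, adjusted p = 0.154) or without any single one of 8 libraries: the first or second of the dual, CDK4, CDK6 and NT4 groups (0.24 to 0.28, adjusted p from 0.054 to 0.0963). CCND1 (-0.31, adjusted p = 0.15) and CCND3 (-0.06, adjusted p = 0.734) did not pass, although CCND1 passed against NT3 alone (-0.59), without the second NT3 library (-0.37) and without the third (-0.24).

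The knockdown groups were also set directly against each other. CCND2 was higher in the CDK6 than in the CDK4 knockdown by 0.89 on the log2 scale (SE 0.06, limma adjusted p = 2.96e-10), a comparison in which 34.8% of tested genes were called. The CCND1 and CDK6 knockdowns did not pass for CCND2 (-0.10, 95% interval -0.22 to 0.03, adjusted p = 0.349), nor did the CCND1 and dual knockdowns (0.06, 95% interval -0.07 to 0.18, adjusted p = 0.544). CCND2 was thus called higher than in the controls both in the group where CCND1 was reduced and in the CDK6 knockdown, where CCND1 was higher.

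CCND3 did differ between those groups. It was lower in the CCND1 knockdown than in the CDK6 knockdown by 0.23 on the log2 scale (SE 0.06, limma adjusted p = 0.0162; 12.2% of tested genes called) and than in the dual knockdown by 0.18 (SE 0.06, adjusted p = 0.0386; 20.3% called). CCND1 in the CDK6 and CDK4 knockdowns differed by 0.22 (adjusted p = 0.0795), which did not pass.

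None of the knockdown groups came near the proliferating level of CCND2. The closest, the CDK4 knockdown, was 4.57 higher on the log2 scale (SE 0.06, limma adjusted p = 4.12e-23), and 62.7% of tested genes passed in that comparison.

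The partner kinases moved little when CCND1 was knocked down. CDK4, at 1072, 1073 and 1148 normalised counts, was lower by 0.18 on the log2 scale (SE 0.06, limma adjusted p = 0.0246), and CDK6, at 4853, 5318 and 5209.7, differed by 0.13 and did not pass (adjusted p = 0.219). Each kinase also shifted when the other was targeted: CDK6 was higher by 0.35 in the CDK4 knockdown (SE 0.08, adjusted p = 0.00471), and CDK4 was lower by 0.39 in the CDK6 knockdown (SE 0.06, adjusted p = 1.98e-05). The CDK6 libraries there, at 5163 to 6397, overlapped the controls at 4147 to 5689, and their mean was 118% of NT3 and 137% of NT4. CDK4 in the CDK6 knockdown, at 889 to 1015, lay below every control library. In the CCND1, CDK4 and CDK6 knockdowns 31%, 16% and 41.9% of tested genes were called. In senescent controls against proliferating cells CDK4 was lower by 0.81 and CDK6 higher by 0.39, both past the threshold.

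Of the 7 INK4 and CIP/KIP inhibitors, 6 were tested, and CDKN1C was too low. Against proliferating cells 2 were higher and 3 lower in the senescent controls, with a list median of -0.37 beside -0.03 over all tested genes: CDKN1A, the CIP/KIP inhibitor p21, at 2.55, and CDKN2B, the INK4 inhibitor p15, at 1.21, were higher, and CDKN2C (p18) at -3.30 and CDKN1B (p27) at -1.20 were lower on the log2 scale. The CCND1 knockdown had none higher and 3 lower, all INK4 genes, with a median of -0.39 beside -0.01 over all genes: CDKN2B at -0.77, CDKN2A, which encodes p16, at -0.71 and CDKN2C at -0.70. The CDK6 knockdown had 4 lower, led by CDKN2B at -1.66 and CDKN2A at -1.15, the dual knockdown 4 lower and 1 higher, and the CDK4 knockdown 1 lower, CDKN1A at -0.49. Of all tested genes, 32.6% were higher and 36.1% lower in the senescent controls, and 14.4%, 20.8%, 21.5% and 7.55% were lower in the CCND1, CDK6, dual and CDK4 knockdowns. In the dual knockdown 22.5% were higher. CDKN2A and CDKN2B are neighbours on the genome, and how reads shared by overlapping genes were assigned is not given in the sources used here.

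Most S phase genes under E2F control were lower with CCND1 knocked down, in cells where senescence had come with far lower levels of the whole list. Against proliferating cells all 12 tested genes of this list were lower in the controls, with a median of -2.21 on the log2 scale beside -0.03 over all genes, led by the thymidine kinase TK1 at -2.55. With siRNA to CCND1, 9 of 12 were lower and none higher, with a median of -0.54 beside -0.01 over all genes, and 14.4% of all tested genes were lower there. MCM2, a subunit of the replicative helicase, was at -0.97, RRM2, a subunit of ribonucleotide reductase, at -0.85, and TK1 at -0.80. Their levels in the CCND1 knockdown were 149 ± 11.4 (SD, n = 3) normalised counts for MCM2 and 682 ± 68.0 for RRM2, against 298 ± 19.5 and 1359 ± 159 with NT3 and 286 ± 16.1 and 1116 ± 33.1 with NT4.

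All 12 S phase genes were lower in the CDK6 knockdown (median -0.77) and in the dual knockdown (median -1.21, RRM2 at -2.97), where 20.8% and 21.5% of all tested genes were lower. In the CDK4 knockdown none was lower and RRM2 was higher by 0.36, with a median of 0.05 beside 0.00 over all genes. The later cyclins and their kinases, 7 genes that act from the start of S phase to mitosis, had 5 lower in the CCND1 knockdown, 7 lower in each of the CDK6 and dual knockdowns, and in the CDK4 knockdown 1 lower and 3 higher. Of all tested genes 14.4% were lower in the CCND1 knockdown, and in the CDK4 knockdown 7.55% were lower and 8.46% higher. There CCNA2, the S phase cyclin A2, was higher by 0.55 and CDK2, the partner of cyclins E and A, lower at -1.04, and in the CCND1 knockdown CDK1, the mitotic kinase, was at -0.70. The 4 knockdowns share their controls, so the likeness of their counts is not an independent result.

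**Figure D4:**
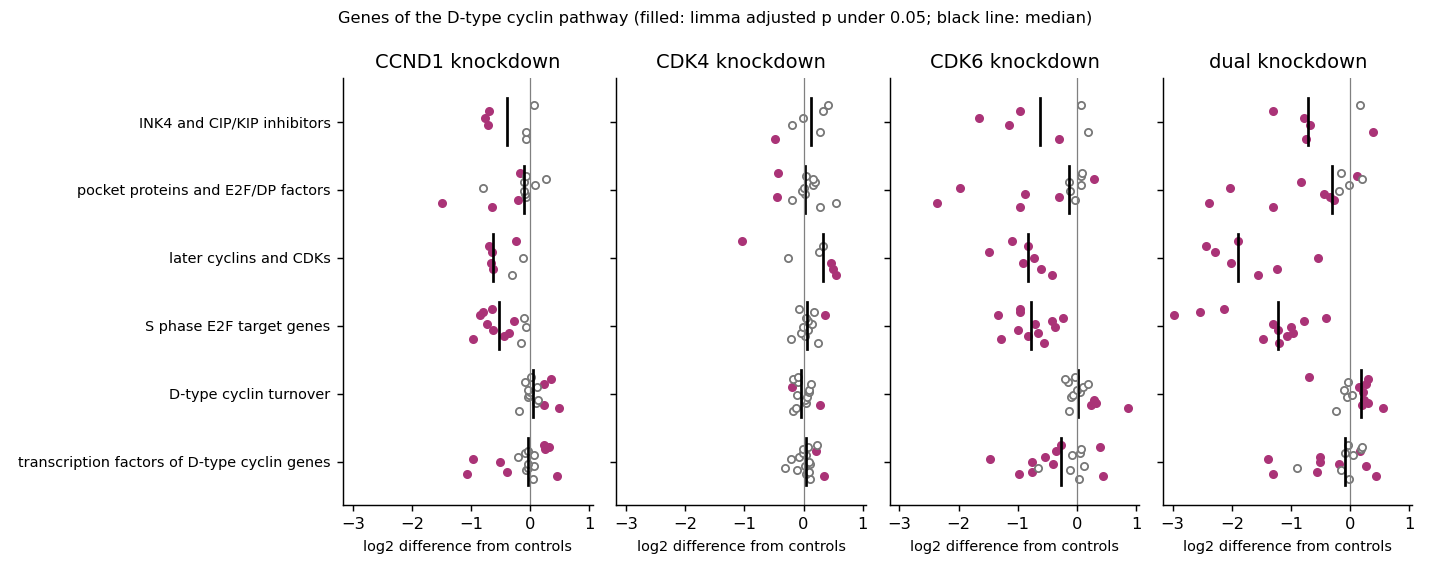
Log2 difference from the controls (horizontal axis) of each tested gene in 6 lists of the D-type cyclin pathway (vertical axis) in the 4 knockdowns; filled points have a limma adjusted p under 0.05 and black lines are list medians. The S phase list has medians of -0.54, 0.05, -0.77 and -1.21 in the CCND1, CDK4, CDK6 and dual knockdowns, and the list of transcription factors of the cyclin genes scatters to both sides.

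The list of pocket proteins with E2F and DP factors had 12 of 13 members among the table's genes, all tested. In the senescent controls 11 were lower than in proliferating cells (median -0.67), as were 36.1% of all tested genes, among them E2F1, an activating E2F, at -1.71 and RB1 itself at -0.74. The CCND1 knockdown had 4 lower and none higher (median -0.11), against 14.4% of all tested genes lower, with E2F1 at -0.64 and E2F2 at -1.49. E2F2 rested on 3 to 5 reads per library in that group and 4 to 18 in the controls, so its size is uncertain. The CDK4 knockdown had 2 lower, the CDK6 knockdown 5 lower and 1 higher, and the dual knockdown 7 lower and 1 higher, where 7.55%, 20.8% and 21.5% of all tested genes were lower. In the CDK6 and dual knockdowns 21.1% and 22.5% were higher.

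Genes for the turnover of D-type cyclin proteins were called in both directions with senescence. In the knockdowns more of them were called higher than lower, except in the CDK4 knockdown, where the counts were equal. Of 14, 5 were higher and 6 lower in senescent controls against proliferating cells (median -0.15), against 32.6% and 36.1% of all tested genes, with SKP2, a substrate receptor of the SCF ubiquitin ligase, at -1.28. In the CCND1 knockdown 4 were higher and none lower (median 0.05): CRYAB, a small heat shock protein that works with the receptor FBXO4, at 0.49, SKP2 at 0.36, and CUL1, the SCF scaffold, and GSK3B, the kinase that marks cyclin D1 for export and degradation, both at 0.23. Of all tested genes 16.7% were higher and 14.4% lower there. The dual knockdown had 8 higher and 1 lower (median 0.18), the CDK6 knockdown 4 higher and none lower (median 0.03), and the CDK4 knockdown 1 in each direction. In these 3 comparisons 22.5%, 21.1% and 8.46% of all tested genes were higher, and 21.5%, 20.8% and 7.55% lower. The list was not tested as a set. CRYAB was also higher in the CDK6 knockdown, by 0.86. AMBRA1, the receptor through which all 3 D-type cyclins are marked for degradation, passed in none of these comparisons.

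Of 17 transcription factors known to act on D-type cyclin genes, 6 were higher and 8 lower in senescent controls against proliferating cells (median -0.13), against 32.6% and 36.1% of all tested genes, with the AP-1 factors FOS at 1.87 and JUNB at 1.77 among the higher. In the CCND1 knockdown 4 were lower and 4 higher (median -0.05), where 14.4% and 16.7% of all tested genes were. The CDK6 knockdown had 8 lower and 2 higher (median -0.27, with 20.8% and 21.1% of all tested genes). In the dual knockdown 6 were lower and 3 higher, beside 21.5% and 22.5% of all tested genes. In the CDK4 knockdown none was lower and 2 were higher, beside 7.55% and 8.46%. The lower ones in the CCND1 knockdown included FOS at -1.06, the Wnt effector LEF1 at -0.96 and JUNB at -0.51, and the higher ones CTNNB1, which encodes beta-catenin, at 0.46. FOS and LEF1 were low throughout, at 18 to 97 and 10 to 78 reads in the irradiated libraries.

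The transcripts whose pattern was most like each cyclin were ranked by Pearson r of log2 values among 9108 genes with a mean of at least 100. For CCND1, over the 15 irradiated libraries that did not receive its siRNA, these were CTNNB1 (r = 0.98), CPED1 (0.98), HIPK3 (0.98), ABCC4 (0.98) and MAP4 (0.97). Of the irradiated groups that entered, NT3 had the lowest mean of all 5, as of CCND1, and with the proliferating libraries added r ranged from -0.06 for CTNNB1 to 0.88 for ABCC4.

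For CCND2, over all 18 irradiated libraries, the most similar were CAV1, the coat protein of caveolae (r = 0.96), LBH (0.95), NT5C2 (0.94), RFTN1 (0.94) and the chloride channel ANO1 (0.94). CAV1 averaged 11320.5 normalised counts in the CDK4 knockdown, 13639 with NT3, 15380 with NT4, 17949 in the CCND1 knockdown and 20555 in the CDK6 knockdown. In proliferating cells, where CCND2 was nearly silent, CAV1 was at 17225 and LBH at 16725, its highest group, and over all 21 libraries r with CCND2 was -0.03 for CAV1 and -0.65 for LBH. It was -0.47 for ANO1, 0.38 for NT5C2 and 0.80 for RFTN1.

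For CCND3 they were KDELR3 (r = 0.93), the actin-severing protein GSN (0.93), CDK2AP1 (0.91), GYG2 (0.91) and LHFPL6 (0.91). Over all 21 libraries r with CCND3 was 0.88 for KDELR3, 0.75 for GSN, 0.67 for LHFPL6, -0.05 for GYG2 and -0.21 for CDK2AP1. Among the cyclins themselves, r was 0.68 between CCND2 and CCND3 over 18 libraries, and 0.45 between CCND1 and CCND2 and 0.67 between CCND1 and CCND3 over 15, the last rising to 0.90 without the third NT3 library. The points share group, library and scaling, and these values are descriptions only.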

How the data were processed

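Per the file headers, the authors' table gives a signal named normalised counts for each gene in each library. Trimmomatic 0.38.1, HISAT2 2.2.1, featureCounts 2.0.3, DESeq2 2.11.40.8 and the build hg38 are named in the submitters' processing notes, which give no role or order. The signal of every library was a whole multiple of 1 step (100% of values, within 0.01 of a read, or 0.001% of the value above 1000 reads), so the authors divided reads by a size factor, and reads were recovered by dividing by that step. Columns were assigned to groups by their names, and replicate numbers only name libraries. A gene was tested if 3 or more libraries reached a value of 10, which 11579 did. The fit was limma (3.58.1, R 4.3.3) on log2(value + 1), with a mean for each group, one trended empirical Bayes variance for the 7 groups, two-sided tests and Benjamini-Hochberg adjustment over these genes in each comparison. The script was tested on simulated data. Lengths and coordinates came from GENCODE v44 on GRCh38.

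The 3 members, the gene lists and the tests were chosen with earlier results of these data known. Named genes were the members, the targeted kinases, at most 4 past the threshold with the largest changes per list and comparison, and the 5 most similar genes per cyclin. RB1 and AMBRA1 fall outside that rule and were added after their values were seen. The alternatives tried were a pseudocount of 0.1 or 10, dropping the filter, keeping only genes that average at least 100, quantile normalisation, centring on medians, the compared groups alone, either control alone, edgeR 4.0.16 and DESeq2 1.42.0 on recovered reads, and leaving out each library. The series of header numbers as a block, the union length and leaving out the third NT3 library for the sums were added after seeing the data.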

Additional observations from a re-analysis of the deposited data

Results flagged for a closer look

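CCND2 in the dual knockdown was higher than the sum of its changes in the CDK4 and CDK6 knockdowns by 0.29 on the log2 scale (SE 0.08, limma adjusted p = 0.0346) by an interaction term. This was a borderline call, which lost the threshold in 12 of 27 alternatives. CCND2 fell to 2712 to 2876 normalised counts in the CDK4 knockdown and rose to 4912 to 5471 in the CDK6 knockdown. In the dual knockdown it stood at 4287 to 4920.2. By the same term 6.35% of tested genes departed from the sum.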

How the results depend on the processing

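Across 21 results for the 3 cyclins and 441 alternative values, 411 kept their direction and their side of the threshold, 18 lost the threshold, 5 gained it and 7 changed sign. All alternatives kept the calls in senescent against proliferating cells and in the CDK6 and dual knockdowns, and the CCND2 calls in the CCND1 and CDK4 knockdowns. Fitted on the compared groups alone, CCND1 in the CDK4 knockdown (0.31), the departure of CCND2 from the sum (0.29) and the NT4 against NT3 differences of CCND2 (0.22) and CCND3 (0.21) lost the threshold. With NT4 alone as control, CCND1 in the CDK4 knockdown was 0.039 and lost it, and CCND3 turned sign, none past the threshold, to -0.022 in the CCND1 knockdown, -0.096 in the CDK4 knockdown and 0.0498 for the departure from the sum. With NT3 alone, CCND3 in the CCND1 knockdown (0.19) and the departure of CCND1 from the sum (-0.59) gained it, and that of CCND2 (0.18) lost it, as it did with quantile normalisation (0.26). Without single libraries, CCND1 in the CDK4 knockdown ranged from 0.23 to 0.36, CCND3 from 0.0527 to 0.13 in the CCND1 knockdown and from -0.0215 to 0.0538 in the CDK4 knockdown, where 4 of 9 values were below 0 (-0.00011, -0.0023, -0.0015 and -0.0215). The departures from the sum ranged from -0.37 to -0.24 for CCND1 and 0.24 to 0.34 for CCND2, and CCND3 in NT4 against NT3 from 0.15 to 0.30. The cause was not tested.

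The number of genes past the threshold was 3594 in the CCND1 knockdown, and 2285 on the compared groups alone and 2235 with NT4 alone. In the CDK4 knockdown it was 1854, and 798 on the compared groups alone, 2962 with NT3 alone, and 1176 and 1062 without its first and second library. For the departure from the sum it was 735, and 394, 1899 with NT3, 455 with NT4 and 442 to 1438 without single libraries, and for NT4 against NT3 it was 3216 and 976 on the compared groups alone. Median centring moved the share of higher calls in senescent against proliferating cells from 47.4% to 57.9%. No paired analysis was possible because the table's columns carry no replicate number of the labels. The numbers in the column headers are tied by no label to a batch or day. Those of the irradiated libraries fall into 3 series, each with a library of every irradiated group. The proliferating libraries carry separate numbers, 113 to 115, and were left out of the fit with this block. Within a series, deviations correlated by a median of 0.04 over 45 pairs. With the series as a replicate block, the departure of CCND2 from the sum was 0.29 and lost the threshold. CCND2 in proliferating cells rested on at most 134 reads per library.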
